A study of Drosophila melanogaster with 6 samples.

Results

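The genes described here encode the subunits of the mitochondrial respiratory chain and of the ATP synthase, together with their close paralogs. They were taken by name, without use of any measured value: a gene belonged if its current symbol starts with ND- (complex I), Sdh (complex II), UQCR- (complex III), COX and a digit (complex IV) or ATPsyn (complex V), and if the array held a probe set paired with that gene alone. Of 91 such genes in RefSeq, 73 met this condition, out of 11982 genes measured in this way. For 3 genes (ND-AGGG, COX6B and ATPsynG) the array held only a probe set shared with another gene, and for 15 no probe set was paired in the annotation used, so they were not analysed here; these include the mitochondrially encoded COX1, COX2 and COX3. A gene with several probe sets was represented by the brightest. By symbol the 73 genes comprised 51 main subunits, 21 paralogs whose symbol carries an L after that of the main subunit (in some with a number after it), and 1 assembly factor, Sdhaf3.

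RNA was measured on Affymetrix arrays in 2 groups of GFP-positive cells sorted from Drosophila embryos. In the jumu group, the twist driver twi-GAL4 switched on the reporter UAS-2EGFP and, from the UAS-jumu transgene, the forkhead transcription factor Jumu. In the control group the same driver and reporter were present, and no other transgene is named. All embryos developed at 29 °C and were taken between the end of stage 11 and the beginning of stage 12. Each group had 3 arrays. What stands opposite the driver and reporter in the controls is not stated, so equal copy number cannot be taken for granted. The labels do not say whether the 3 samples of a group came from separate embryo collections, and p-values are therefore set against a spread between samples that could be only technical.

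The respiratory chain moves electrons from NADH through complex I and from succinate through complex II to ubiquinone, then through complex III and cytochrome c to complex IV, which reduces oxygen. Complexes I, III and IV pump protons out of the mitochondrial matrix, and the ATP synthase, complex V, uses the returning protons to make ATP. Most subunits are encoded in the nucleus, a few in mitochondrial DNA, and both sets must be assembled together in the inner membrane. Muscle is among the tissues richest in these complexes, and the mesoderm of the stages sampled is the source of the larval muscles and the heart. In Drosophila many nuclear genes of these complexes have a duplicate that is used mainly in the testis.

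The overexpressed gene followed its label. The log2 signal of jumu was 13.62, 13.35 and 13.69 in the jumu arrays against 11.35, 11.56 and 11.44 in the controls, a log2 change of 2.11 ± 0.14 (limma SE, n = 3 per group, adjusted p = 0.0165). As deposited, the median log2 value of an array was 5.09 to 5.43 in the jumu group and 5.38 to 5.64 in the control group, so the values were quantile normalized between arrays before testing, and every change below is relative to that scaling unless stated. Markers of the sorted tissue were present: of 13 measured mesoderm genes 0 had a mean log2 signal under 6. Below that level the median SD over genes was 0.96 in jumu arrays and 1.02 in controls, against 0.07 and 0.08 for genes over 9. Marker lists moved with the groups. The mean log2 signal of the 13 mesoderm genes was 10.72 to 10.82 in jumu arrays and 10.26 to 10.31 in controls. With limma, 4 were called higher and 0 lower, and by sign 11 had a positive change and 2 a negative one. Beside the calls in this and the next lists, 1.36% of all probe sets were called higher and 1.41% lower. The mean log2 signal of 13 nervous system genes was 9.19 to 9.30 in jumu arrays and 9.92 to 10.02 in controls, with 2 of them under 6 and 7 called lower. That of 10 epidermis and trachea genes was 7.85 to 8.02 in jumu arrays and 8.37 to 8.83 in controls, with 1 under 6 and 3 called lower. That of 11 blood cell genes was 9.45 to 9.51 in jumu arrays and 8.04 to 8.48 in controls, with 4 under 6, 2 called lower and 0 called higher. Over the 7 blood cell genes above 6 it was 11.05 to 11.11 in jumu arrays and 11.07 to 11.19 in controls, with overlap. The higher mean thus came from the 4 genes whose mean over all 6 arrays was under 6. Of these, Hml had a log2 signal of 7.93, 7.98 and 8.06 in jumu arrays against 4.57, 0.64 and 4.19 in controls. He had 6.85, 6.52 and 6.58 in jumu arrays against 0.98, 3.60 and 0.50 in controls. Of the 11 genes, 8 had a positive change and 3 a negative one. PPO1 (-0.93 ± 0.10) and Pxn (-0.64 ± 0.09) were the 2 called lower. Hml, He, PPO1 and Pxn were named after their values were seen. In bulk samples fewer cells of a type and less RNA per cell cannot be told apart, and the part of these shifts in the results below was not tested.

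After quantile normalization, subunit genes of all 5 complexes had a slightly lower median signal in the jumu arrays, a direction that turned when arrays were scaled to spiked-in controls (given below). Of the 51 main subunits, 49 had a negative log2 change and 2 a positive one, and the median change was -0.26, a fold of 0.837 (jumu over control). Over all 11982 genes the median change was -0.01, with 5853 positive and 6129 negative. No main subunit passed an adjusted p of 0.05 with limma (0 higher and 0 lower; 0 higher, with 26 lower, at an unadjusted p under 0.05). At that unadjusted threshold 11.7% of all genes were lower and 10.8% higher, and of genes over 9 17.1% were lower and 16.8% higher. Among all 73 members 1 gene passed, the assembly factor Sdhaf3, which was lower, where 1.41% of all probe sets were called lower and 1.36% higher.

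The replicates lay close together at these signal levels. The 48 main subunits with a mean log2 signal over 9 had a median SD of 0.06 in the jumu arrays and 0.05 in the controls, against a median limma SE of 0.10. In 38 of the 48 every jumu array lay below every control array, where this held for 29.3% of the 3950 genes over 9. In 1 of the 48, COX8, every jumu array lay above every control array, where this held for 28.7% of those genes. With a variance prior that follows signal intensity, 36 of the 48 were called lower and 0 higher, against 23.1% of all genes over 9 called lower in that fit; with the prior used for the tests above, 0 of the 48 were called, against 2.18% called lower. The calls of the intensity trend depended on the scaling: with that prior and median centring, 0 of the 48 were called lower or higher, against 2.08% of genes over 9 called lower. With quantile normalization the 36 were 20 of the 25 genes of complex I, 2 of 3 of complex II, 3 of 3 of complex III, 3 of 7 of complex IV and 8 of 10 of complex V.

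**Figure D1:**
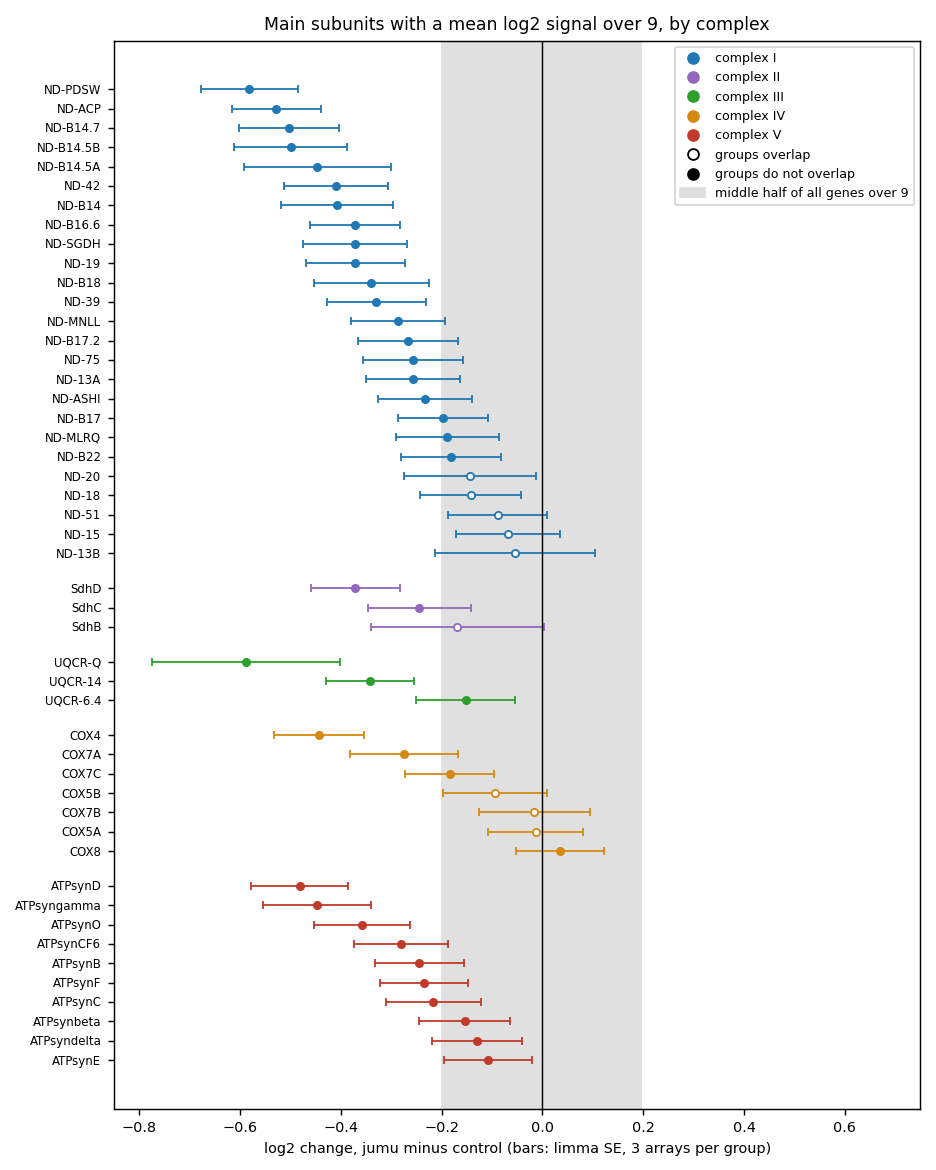
Log2 change (jumu minus control, horizontal axis) of the 48 main subunits with a mean log2 signal over 9, one row per gene, grouped by complex; bars are limma standard errors (n = 3 arrays per group), filled points mark genes whose groups do not overlap and the grey band is the interquartile range of all genes over 9. With this quantile scaling all genes but COX8 lie left of 0 (their median is 0.26 and 0.62 with scaling to the hybridization and poly-A controls), and the genes of complex IV reach from -0.44 to 0.03.

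The direction of this shift depended on how the arrays were scaled. The median of the 48 subunits was -0.26 after quantile normalization and -0.30 in the deposited values, was -0.03 with median centring, and turned to 0.26 with scaling to the hybridization controls and 0.62 with scaling to the poly-A controls. The same scalings moved the median of all genes to -0.01, -0.08, 0.19, 0.49 and 0.84. What the scalings by a constant per array share is the place of the subunits relative to other genes: their median was 0.32 log2 units below that of all genes over 9 in each of those 4 (-0.32), and -0.25 after quantile normalization. Within each array of the deposited table, the mean of the 48 subunits minus the mean of all genes over 9 was 1.43, 1.38 and 1.35 in jumu arrays against 1.69, 1.70 and 1.71 in controls, a difference of -0.32 with no overlap. The statements below are about signals relative to other genes, not about RNA per cell.

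Complex I, the entry point for electrons from NADH and the largest of the complexes, had 27 measured main subunits, all with a negative change (median -0.33, range -0.58 to -0.05). They include ND-B8, with a mean log2 signal of 2.11, where the sign of a change is not reliable. Over the 25 subunits above 9 the median was -0.29. Of the 27, 0 passed the threshold with limma. At an unadjusted p under 0.05 there were 16 lower and 0 higher, beside the 17.1% and 16.8% of genes over 9. The smallest p belonged to ND-PDSW, an accessory subunit of the membrane arm. Its log2 signal was 11.75, 11.65 and 11.65 in the jumu arrays against 12.21, 12.33 and 12.25 in the controls. The groups did not overlap, and the change was -0.58 ± 0.10 (SE, adjusted p = 0.0569 with limma, 2.62e-07 with the intensity trend, 0.196 with the trend and median centring).

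ND-ACP encodes the mitochondrial acyl carrier protein, which is both a subunit of complex I and a carrier in mitochondrial fatty acid synthesis. Its log2 signal was 11.73, 11.68 and 11.73 in jumu arrays against 12.23, 12.23 and 12.27 in controls. The groups did not overlap and differed by -0.53 ± 0.09 (SE, adjusted p = 0.0577 with limma, 3.13e-07 with the intensity trend, 0.334 with the trend and median centring). This gene had 3 probe sets, and the other 2 gave changes of -0.38 ± 0.10 and -0.51 ± 0.10 (SE).

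ND-B14.7 and ND-B14.5B, both accessory subunits, had the next smallest p-values in complex I. ND-B14.7 had a log2 signal of 11.17, 11.26 and 11.09 in jumu arrays against 11.72, 11.67 and 11.63 in controls, a change of -0.50 ± 0.10 (SE, adjusted p = 0.0792). ND-B14.5B had 11.65, 11.68 and 11.45 in jumu arrays against 12.15, 12.10 and 12.03 in controls, a change of -0.50 ± 0.11 (SE, adjusted p = 0.0991). In both genes all jumu arrays lay below all controls. The brightest gene placed in complex I by its symbol alone, ND-MLRQ (synonym NDUFA4), had 14.53, 14.65 and 14.69 in jumu arrays against 14.89, 14.77 and 14.78 in controls. Its groups were apart by less, with a change of -0.19 ± 0.10 (SE, adjusted p = 0.405). The dimmest member above a log2 signal of 6, ND-B12, had 7.70, 7.80 and 7.26 in jumu arrays against 8.10, 7.90 and 7.94 in controls, a change of -0.40 ± 0.18 (SE, adjusted p = 0.329).

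The 3 measured core subunits, which carry redox centres, were set beside the accessory ones by a split made after the values were seen. Other core subunits, ND-23, ND-24, ND-30 and ND-49, had no probe set paired. ND-75, ND-51 and ND-20 had a median change of -0.14, and the 22 accessory subunits over 9 one of -0.33. This difference was not tested. ND-75 had a log2 signal of 10.30, 10.19 and 10.23 in jumu arrays against 10.50, 10.57 and 10.42 in controls, without overlap (change -0.26 ± 0.10, adjusted p = 0.253). In ND-51 (-0.09 ± 0.10) and ND-20 (-0.14 ± 0.13) the groups overlapped.

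Complex II, succinate dehydrogenase, belongs both to the respiratory chain and to the TCA cycle. Sdhaf3, an assembly factor that helps the iron-sulfur subunit mature, had the largest change among the members above a log2 signal of 6. Its log2 signal was 6.49, 6.60 and 6.83 in jumu arrays against 8.15, 7.88 and 8.18 in controls. The groups were separated by more than the range within either, and the change was -1.43 ± 0.15 (SE, adjusted p = 0.0307), a fold of 0.371 (jumu over control). With any 1 of the 6 arrays left out, the change lay between -1.54 and -1.35 and the adjusted p between 0.0839 and 0.123, in fits that called at most 1 of all 18769 probe sets lower. With the intensity trend the adjusted p was 4.57e-05 with all 6 arrays, and 0.000126 to 0.000862 with 1 left out. With the prior of the main test the call was lost with median centring (-1.22, adjusted p = 0.156), with scaling to the hybridization controls (-0.92, adjusted p = 0.112) and with the replicate block (adjusted p = 0.238). With the trend and median centring it was kept (adjusted p = 0.00144).

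The 3 measured subunits of complex II changed less. SdhD, a membrane anchor, had a log2 signal of 10.61, 10.61 and 10.61 in jumu arrays against 10.94, 11.03 and 10.99 in controls, a change of -0.37 ± 0.09 (SE, adjusted p = 0.109). SdhC, the other membrane anchor, had 11.59, 11.44 and 11.48 in jumu arrays against 11.69, 11.83 and 11.72 in controls, a change of -0.24 ± 0.10 (SE, adjusted p = 0.286). Neither gene's groups overlapped. SdhB, the iron-sulfur subunit, had 10.39, 10.14 and 9.89 in jumu arrays against 10.28, 10.46 and 10.18 in controls, and these overlapped.

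Complex III, which passes electrons from ubiquinol to cytochrome c, had 4 measured main subunits with its prefix, 3 of them over 9. UQCR-Q, a small subunit of the complex, had the most negative change of any main subunit and also a wide spread. Its log2 signal was 10.71, 10.63 and 10.34 in jumu arrays against 11.17, 10.89 and 11.39 in controls, a change of -0.59 ± 0.19 (SE, adjusted p = 0.185). UQCR-14 had 13.30, 13.33 and 13.26 in jumu arrays against 13.65, 13.63 and 13.64 in controls, a change of -0.34 ± 0.09 (SE, adjusted p = 0.122). Its control arrays agreed closely and no jumu array reached them. UQCR-6.4 had 13.64, 13.65 and 13.56 in jumu arrays against 13.72, 13.73 and 13.87 in controls, a change of -0.15 ± 0.10 (SE, adjusted p = 0.493). The fourth, UQCR-11, had a weaker signal of 7.19, 8.02 and 7.58 in jumu arrays against 7.72, 7.71 and 7.27 in controls, and the groups overlapped (0.03 ± 0.27, adjusted p = 0.975).

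Complex IV, cytochrome c oxidase, had the smallest median change of the 5 complexes after quantile normalization: -0.09 over the 7 main subunits with its prefix. This median was -0.059 without jumu array 2. It was -0.013 when all probe sets of a gene were averaged, among them weak ones of COX7B and COX7C. The median leaves out levy (-0.42) and cype (-0.13), subunits of complex IV with other symbols. Among the 7 the groups did not overlap in 3 genes that were lower and in 1 that was higher. Among genes over 9 this held for 29.3% lower and 28.7% higher. COX4, a nuclear-encoded subunit that contacts the catalytic core, had a log2 signal of 13.17, 13.10 and 13.13 in jumu arrays against 13.61, 13.54 and 13.58 in controls, a change of -0.44 ± 0.09 (SE, adjusted p = 0.0825 with limma, 7.05e-07 with the intensity trend, 0.317 with the trend and median centring). COX7A had 13.30, 13.25 and 13.38 in jumu arrays against 13.46, 13.62 and 13.67 in controls, a change of -0.27 ± 0.11 (SE, adjusted p = 0.261). COX7C had 13.37, 13.36 and 13.34 in jumu arrays against 13.51, 13.58 and 13.54 in controls, a change of -0.18 ± 0.09 (SE, adjusted p = 0.345). In these 3 genes all jumu arrays lay below all controls. The brightest, COX7B, had 13.78, 13.82 and 13.95 in jumu arrays against 13.90, 13.75 and 13.94 in controls, with overlap (-0.02 ± 0.11). The changes of COX5A (-0.01 ± 0.09), COX5B (-0.09 ± 0.10) and COX8 (0.03 ± 0.09) were within about 1 SE of 0.

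Complex V, the ATP synthase, had 10 measured main subunits, and in all 10 every jumu array lay below every control array (median change -0.24, range -0.48 to -0.11). Among genes over 9 that held for 29.3%. Of the 10, 0 passed the threshold with limma, and at an unadjusted p under 0.05 there were 6 lower and 0 higher. At that p 17.1% of genes over 9 were lower and 16.8% higher. With the intensity trend 8 of the 10 were called lower, against 23.1% of genes over 9. With the trend and median centring it was 0, against 2.08%. ATPsynD, a subunit of the peripheral stalk that holds the catalytic head still, had a log2 signal of 12.54, 12.47 and 12.38 in jumu arrays against 12.91, 12.94 and 12.99 in controls, a change of -0.48 ± 0.10 (SE, adjusted p = 0.0825). ATPsyngamma, the central shaft that turns inside the head, had 12.71, 12.55 and 12.60 in jumu arrays against 12.96, 13.13 and 13.11 in controls, a change of -0.45 ± 0.11 (SE, adjusted p = 0.110). The gap between the groups exceeded the spread within each in both genes.

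ATPsynO and ATPsynCF6 also belong to the peripheral stalk. ATPsynO had a log2 signal of 12.57, 12.59 and 12.48 in jumu arrays against 12.86, 12.89 and 12.96 in controls, a change of -0.36 ± 0.09 (SE, adjusted p = 0.131). ATPsynCF6 had 12.70, 12.61 and 12.56 in jumu arrays against 12.93, 12.89 and 12.89 in controls, a change of -0.28 ± 0.09 (SE, adjusted p = 0.200). The brightest member, ATPsynC, encodes the subunit of the rotating ring in the membrane. It had 13.73, 13.73 and 13.65 in jumu arrays against 13.96, 13.96 and 13.84 in controls, a change of -0.22 ± 0.09 (SE, adjusted p = 0.306).

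**Figure D2:**
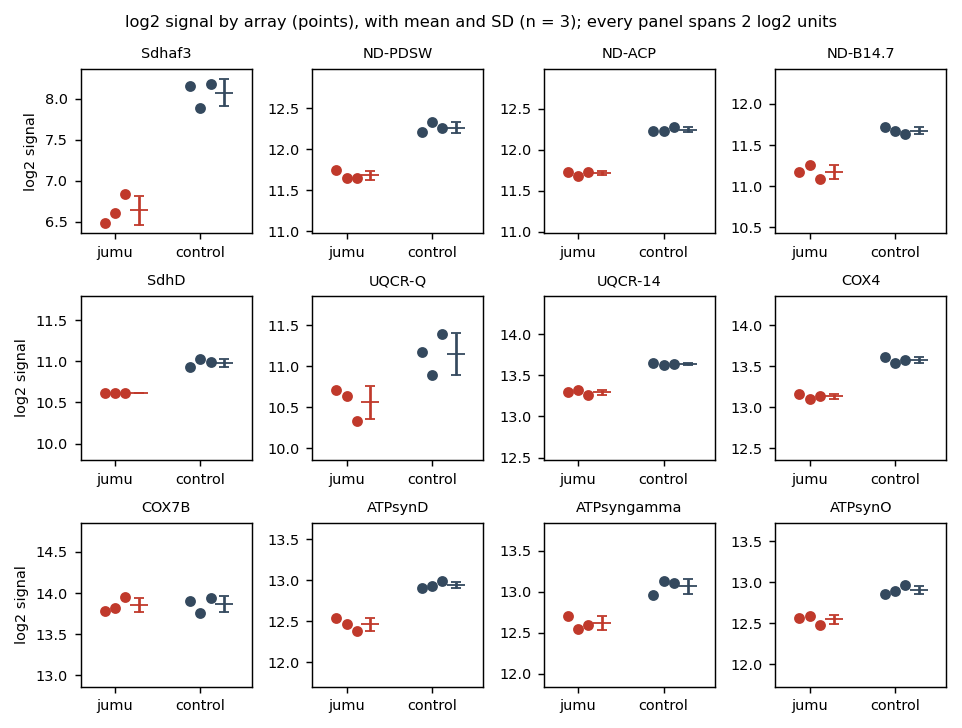
Log2 signal of 12 members in the 3 jumu arrays and the 3 control arrays after quantile normalization, with the mean and SD of each group; every panel spans 2 log2 units. In COX4 the jumu arrays lie between 13.10 and 13.17 and the controls between 13.54 and 13.61, while in COX7B the groups overlap; with scaling to the hybridization controls the change of COX4 was 0.013, against -0.44 here.

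Complex IV, taken by its prefix, had the least negative median of the 5 complexes after quantile normalization and in the deposited values. The other scalings shift each array by a constant, so they keep the order of the deposited values by construction. In the deposited values the medians were -0.31, -0.23, -0.38, -0.17 and -0.34 for complexes I to V. By the mean, the smaller change of complex IV depended on the normalization. After quantile normalization the mean changes of the subunits over 9 were -0.30, -0.26, -0.36, -0.14 and -0.27 for complexes I to V. In the deposited values, the mean of each complex minus the mean of all genes over 9 in the same array was lower in every jumu array than in every control array for all 5 complexes. The difference was -0.31 for complex I, -0.26 for complex II, -0.45 for complex III, -0.28 for complex IV and -0.35 for complex V. Set against complex IV within each array, complex I differed by -0.03 and complex II by 0.02, both with overlapping groups. For complex III (-0.18) and complex V (-0.07) this within-array difference was lower in every jumu array than in every control. In complex III, with 3 genes, the groups nearly touched, at -0.838 in jumu array 2 and -0.833 in control array 2. Against all genes over 9, the within-array difference was -0.78 for the nervous system markers, -0.72 for the epidermis and trachea markers, 0.46 for the mesoderm markers and 1.06 for the blood cell markers, or -0.09 with overlap over the 7 blood cell markers above 6. The part of these in the shift of the subunits was not tested.

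**Figure D3:**
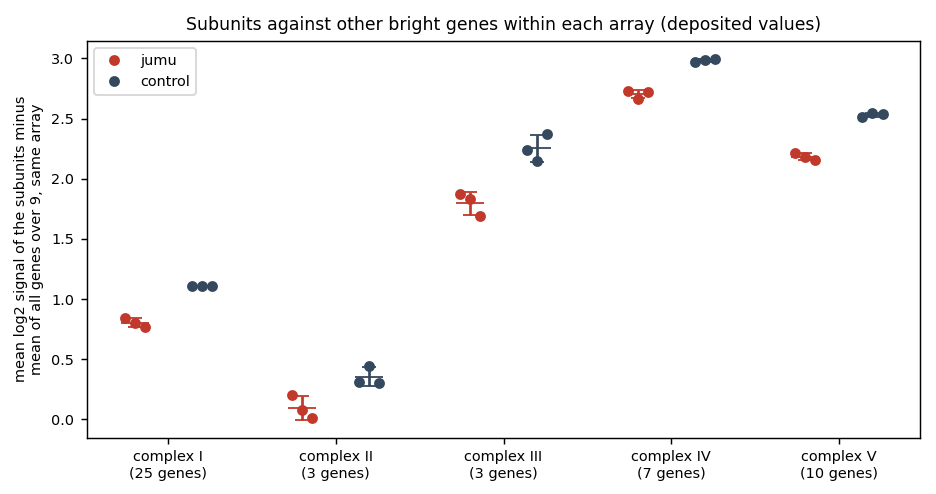
Mean log2 signal of the main subunits over 9 of each complex minus the mean of all genes over 9 in the same array of the deposited table; each point is an array, and bars show the mean and SD (n = 3). All 3 jumu arrays lie below all 3 controls for each complex, for complex V at 2.16 to 2.21 in jumu arrays and 2.51 to 2.54 in controls.

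Among the members, 6 genes had more than 1 probe set, and these did not always agree. The second probe set of ATPsyngamma gave -0.17 ± 0.09 (SE), less than the -0.45 of the brighter one. The second probe set of COX7C, with a mean log2 signal near 7, gave 0.31 ± 0.19 (SE) where the brighter one gave -0.18. COX7B had a second bright probe set at -0.16 ± 0.11 (SE), where the brightest gave -0.02, and another with a mean log2 signal under 6. Both probe sets of ATPsynbeta (-0.15 and -0.24) and of ND-B17 (-0.20 and -0.24) were negative. The probe sets shared with another gene gave -0.53 for ND-AGGG, -0.33 for COX6B and 0.09 for ATPsynG, and their signal cannot be assigned to 1 gene.

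The paralogs marked by an L were mostly near background. Of 21, 19 had a mean log2 signal under 6, and 0 passed the threshold with limma (at an unadjusted p under 0.05, 1 was higher and 0 were lower). Their median SD was 0.97 in jumu arrays and 0.96 in controls, so no size of change is given for those under 6. COX4L had a log2 signal of 7.51, 7.48 and 7.33 in jumu arrays against 6.74, 7.50 and 6.92 in controls (0.38 ± 0.23, adjusted p = 0.456). ATPsynepsilonL had 7.98, 7.61 and 7.75 in jumu arrays against 8.06, 7.72 and 7.74 in controls (-0.06 ± 0.16, adjusted p = 0.895). In both the groups overlapped. SdhBL had 5.52, 5.87 and 5.23 in jumu arrays against 3.70, 0.77 and 3.49 in controls (adjusted p = 0.168). SdhAL had 3.22, 2.88 and 2.76 in jumu arrays against 0.63, 2.38 and 1.99 in controls (adjusted p = 0.258). UQCR-11L had 2.13, 5.25 and 2.56 in jumu arrays against 5.55, 4.10 and 5.45 in controls (adjusted p = 0.429), with overlap. Germ line and testis markers were near background too, with 8 of 10 under 6 and 1 called higher.

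Other genes of the organelle were read from lists that were chosen with earlier results of these data known. Their changes are those after quantile normalization and were not recomputed under the other scalings, which shift all genes as given above. Their counts at an unadjusted p under 0.05 stand beside 11.7% of all genes lower and 10.8% higher. For genes over 9, nearer in signal to the brighter lists, these shares were 17.1% and 16.8%. Of 8 measured subunits whose symbols lie outside the prefixes, 0 were called with limma in either direction (3 lower, 0 higher at an unadjusted p under 0.05), with a median change of -0.24. Among them blw, the alpha subunit of the ATP synthase head, had a change of -0.38 ± 0.09 (SE, adjusted p = 0.102), and levy, a complex IV subunit, one of -0.42 ± 0.11 (SE, adjusted p = 0.121). Of 13 assembly factors 0 were called (4 lower, 1 higher at an unadjusted p under 0.05), with a median of -0.26. The prohibitins Phb2 (-0.51 ± 0.09) and Phb1 (-0.46 ± 0.09), which form a scaffold in the inner membrane, had the smallest p-values there.

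Of 14 import and chaperone genes 0 were called (7 lower, 1 higher at an unadjusted p under 0.05), with a median of -0.29. Hsp60A, the matrix chaperonin, had a log2 signal of 11.96, 12.16 and 11.83 in jumu arrays against 12.80, 12.95 and 12.74 in controls, a change of -0.84 ± 0.13 (SE). Tim13, an import chaperone, was under 6. Of 14 carriers and pores 0 were called (1 lower, 0 higher at an unadjusted p under 0.05; median -0.04), with porin, the outer membrane channel, at -0.36 ± 0.09 (SE) and Ucp4A, an uncoupling protein, at 0.81 ± 0.32 (SE). Of 16 genes of mitochondrial DNA upkeep and transcription 0 were called (3 lower, 1 higher at an unadjusted p under 0.05; median -0.13), with mTerf3 at -0.48 ± 0.11 (SE) and mtTFB2 at 0.39 ± 0.10 (SE).

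The TCA cycle list, with 15 measured genes and a median of -0.17, held 1 gene called higher and 1 called lower. Idh3b, a subunit of the NAD-dependent isocitrate dehydrogenase, rose: its log2 signal was 9.70, 9.90 and 9.84 in jumu arrays against 8.66, 8.76 and 8.52 in controls, a change of 1.16 ± 0.12 (SE, adjusted p = 0.0284 with limma). Other subunits of that enzyme did not rise with it: Idh3g had a change of -0.33 ± 0.10 and Idh3a one of 0.004 ± 0.11 (SE). Idh, the NADP-dependent isocitrate dehydrogenase, which is not the enzyme of the cycle itself, fell: it had 8.05, 7.96 and 8.21 in jumu arrays against 9.87, 9.58 and 9.90 in controls, a change of -1.71 ± 0.14 (SE, adjusted p = 0.0229 with limma).

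**Figure D4:**
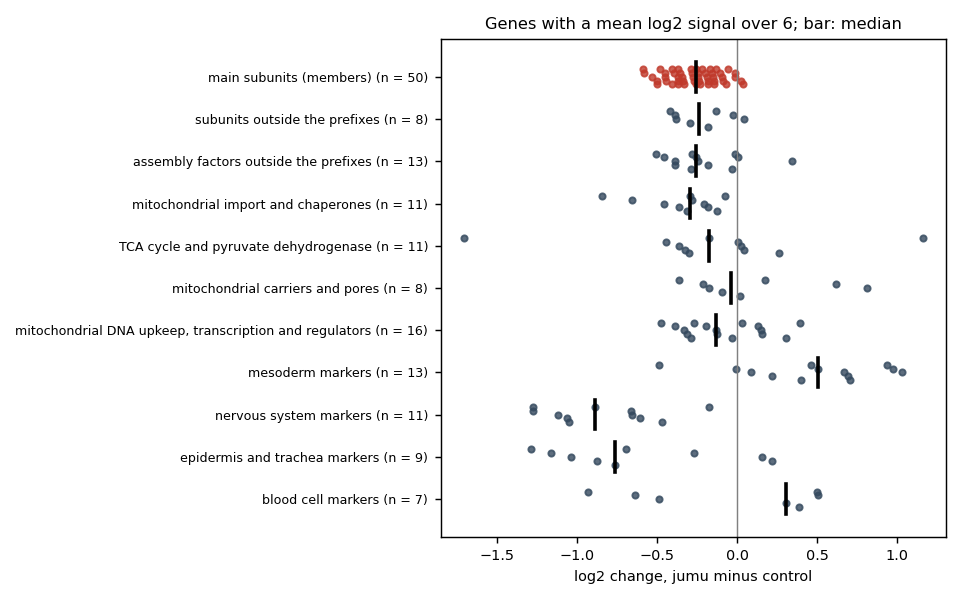
Log2 change (jumu minus control) after quantile normalization of the genes of each list with a mean log2 signal over 6; each point is a gene and the black bar is the median of those plotted. The 8 subunits outside the prefixes and the 13 assembly factors have medians of -0.24 and -0.26, and the 13 mesoderm markers one of 0.51.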

How the data were processed

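The authors deposited a table of log2 probe-set values for 6 Affymetrix arrays, made with the affy package per the submitters' processing notes; the sources used here do not state its settings, and the log2 scale was inferred from how far the values reach. Of 18952 probe sets, 183 controls were left out and 18769 were quantile normalized between arrays and fitted by lmFit and eBayes of limma 3.58.1 under R 4.3.3 (3 against 3 arrays, Benjamini-Hochberg adjustment over all 18769, threshold 0.05). The small number of arrays limits the precision. Names came from the platform annotation, updated through RefSeq: 13647 probe sets had 1 gene, 402 several and 4720 none, and 13544 of the first were matched. Genes named are jumu, every member past the threshold and the 2 smallest p per list. In each complex they include the 4 members with the smallest p and the brightest and dimmest above 6. Any others (ND-75, ND-51, ND-20, ND-B8, SdhB, COX5A, COX5B, COX8, ATPsynbeta, ND-B17, cype, Idh3a, Idh3g, Hml, He and the shared probe sets) were chosen after their values were seen. Members and lists were chosen with earlier results of these data known. Alternatives changed scaling, filter, variance prior, array weights, probe-set choice, replicate block and arrays included; those that combine the intensity trend with another scaling, the within-array differences and the marker levels over 6, were added after seeing the data. The limma fit was tested on simulated arrays with independent noise and no shift between arrays, which does not test the scaling. Promoter motifs were not analysed here.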

Additional observations from a re-analysis of the deposited data

How the results depend on the processing

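The call count and the direction depended on the processing; the cause was not tested where none is named. The count of members called lower, 1 with limma, was 0 with median centring, 0 with scaling to hybridization controls, 0 with the replicate block and 0 to 0 with 1 array left out, and 33 with genes above 6 only, 28 above the median, 37 with the intensity trend, 38 with its robust form, 35 with trend and replicate block, 32 to 35 with trend and 1 array left out (34, 33 and 34 without jumu array 1, 2 and 3), 38 with trend and no further scaling, but 1 with trend and median centring. The share of all genes over 9 called lower moved too. It was 2.18% with limma, 20.2% with genes above 6 only and 17.4% above the median. It was 23.1% with the trend, 22.8% with its robust form and 22.7% with trend and replicate block. With the trend it was 19.7% to 21% with 1 array left out, 22.7% with no further scaling and 2.08% with median centring. The count of members called higher, 0 with limma, was 50 with poly-A scaling, where 3718 of 3950 genes over 9 were also called higher. It was 1 with the robust trend, 1 with trend and median centring, and 0 to 1 with trend and 1 array left out. The median change over members was -0.027 with median centring, -0.30 with no further scaling, 0.27 with hybridization controls, 0.62 with poly-A controls, and -0.29 to -0.22 with 1 array left out; over main subunits over 9 it was -0.034, -0.30, 0.26 and 0.62, and -0.29 to -0.24. Medians of complexes I to V turned to 0.26, 0.34, 0.19, 0.40 and 0.23 with hybridization controls and to 0.61, 0.69, 0.54, 0.75 and 0.59 with poly-A controls; with median centring complex II turned to 0.041 and complex IV to 0.10. Over all 18769 probe sets, same-numbered arrays did not deviate together (correlations -0.012 to 0.0097). Dim probe sets, with their larger spread, weigh most in this measure, so it cannot show whether the numbers pair arrays in bright genes. With the replicate block jumu changed by 2.11 (adjusted p = 0.238 in limma). The call of jumu was also lost with median centring (2.33, adjusted p = 0.0600 in limma) and with any array left out (2.05 to 2.23, adjusted p = 0.0628 to 0.104 in limma, in fits that called at most 21 of 18769 probe sets in a direction); with the trend and 1 array left out it was kept (adjusted p = 1.08e-12 to 1.18e-09). Single genes whose sign turned were, with hybridization controls, ATPsynC 0.19, ATPsynCF6 0.24, ATPsynD 0.056, ATPsynepsilonL 0.49, ATPsyngamma 0.083, ATPsynO 0.17, COX4 0.013, COX7A 0.20, COX7B 0.40, COX7C 0.27, ND-ACP 0.050, ND-B12 0.13, ND-B14.5B 0.082, ND-B14.7 0.079, ND-MLRQ 0.16, SdhC 0.34, SdhD 0.22, UQCR-14 0.14, UQCR-6.4 0.24, UQCR-Q 0.0030. With poly-A controls they were ATPsynC 0.54, ATPsynCF6 0.60, ATPsynD 0.41, ATPsynepsilonL 0.84, ATPsyngamma 0.44, ATPsynO 0.53, COX4 0.37, COX7A 0.56, COX7B 0.75, COX7C 0.63, ND-ACP 0.40, ND-B12 0.49, ND-B14.5B 0.44, ND-B14.7 0.43, ND-MLRQ 0.52, ND-PDSW 0.35, SdhC 0.69, SdhD 0.57, UQCR-14 0.49, UQCR-6.4 0.60, UQCR-Q 0.36. With median centring, with and without the trend, they were ATPsynepsilonL 0.19, COX7B 0.10, SdhC 0.041, with no further scaling, with and without the trend, UQCR-11 -0.0063, and with the mean over probe sets COX7B 0.11, COX7C 0.065. With 1 array left out, with and without the trend, the sign also turned in COX7B (-0.070 to 0.019, turned values also 0.0012 and 0.017), UQCR-11 (-0.18 to 0.23, turned values also -0.13) and ATPsynepsilonL (-0.16 to 0.053, turned values also 0.027). Members under a log2 signal of 6 were given no size of change, because the median SD of genes there was 0.96 in jumu arrays and 1.02 in controls.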
